A study of Danio rerio with 33 samples.

Results

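The comparison described here set embryos exposed to airport extracts against embryos exposed to harbour and road extracts, within the first of the library series that the labels number. It held 9 of the 33 libraries of the study, taken by the library number in the labels: 3 airport, 3 harbour and 3 road libraries of series 35. The study exposed wild type zebrafish embryos to organic extracts of particles collected on air filters and measured their RNA by sequencing. Exposure lasted 24 h, from 96 to 120 hours post fertilisation, and each library came from a pool of 10 whole embryos. The organic compounds on the filters were taken off with dichloromethane and methanol and brought into methanol for storage.

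The airport libraries came from filters 44 and 48 of the cold season and filter 54 of the warm season. The harbour libraries came from filters 32, 36 and 38 and the road libraries from filters 26, 28 and 30, all of the cold season, and every filter was from Barcelona. Each library stood for a different filter, so the spread within a site held the difference between filters as well as that between embryo pools, and no filter had a repeat here. P-values measure the spread between these libraries. A second number in the titles was 1, 1 and 3 for airport filters 44, 48 and 54, 3, 2 and 3 for harbour filters 32, 36 and 38, and 3, 3 and 2 for road filters 26, 28 and 30. The labels do not explain it, so an equal dose in all pools is an assumption. No harbour or road library had the number 1 of airport filters 44 and 48. Whatever that number stands for, a dose included, cannot be told apart from site for these filters. Site, season and filter cannot be told apart for filter 54, nor can a dose that the labels do not give. Its number 3 was also that of harbour filters 32 and 38 and road filters 26 and 28. As background, 3 libraries labelled as vehicle and 3 labelled as mock filter, all of series 35, are given beside the results.

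Polycyclic aromatic hydrocarbons and related compounds in combustion particles bind the aryl hydrocarbon receptor (AhR), a transcription factor that then switches on detoxifying enzymes of the cytochrome P450 1 family. At this age the zebrafish larva has hatched, its liver, pancreas, gut and eye work, its skeleton is forming, and its defence rests on neutrophils, macrophages and proteins made by the liver. Tissue damage calls on cytokines, acute-phase proteins of the liver and enzymes that break down matrix.

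Library totals ran from 18744571 to 51854033 counts, and the largest was that of airport filter 54. That library also had the shortest mean insert, 197 bases, against 244.5 to 273.75 bases in the other 8. Harbour filter 36 and road filter 26 had the lowest shares of uniquely aligned reads, 71.7 and 72.3 percent, against 75.9 to 77.1 percent in the other 7. Pairs of libraries of the same site differed by a chi-square of 13.9 to 60.6 per degree of freedom, so none was a copy of another. A list of 18 markers that define organs, from fabp10a of the liver to prl of the pituitary, matched 19 gene entries of the count table. Of these entries 18 were measured above the low-count limit, which fits whole embryos as labelled. In bulk RNA of whole embryos, fewer cells of a type and less RNA per cell cannot be told apart. On the first principal component of log2 CPM (counts scaled to a common library size by edgeR's normalization), with 41% of the variance, the airport libraries scored 63.5, 45.3 and 38.1. The harbour libraries scored 0.0332 for filter 32, -41.3 and -46.1, and the road libraries scored -20.2, -19.5 and -19.9.

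**Figure D1:**
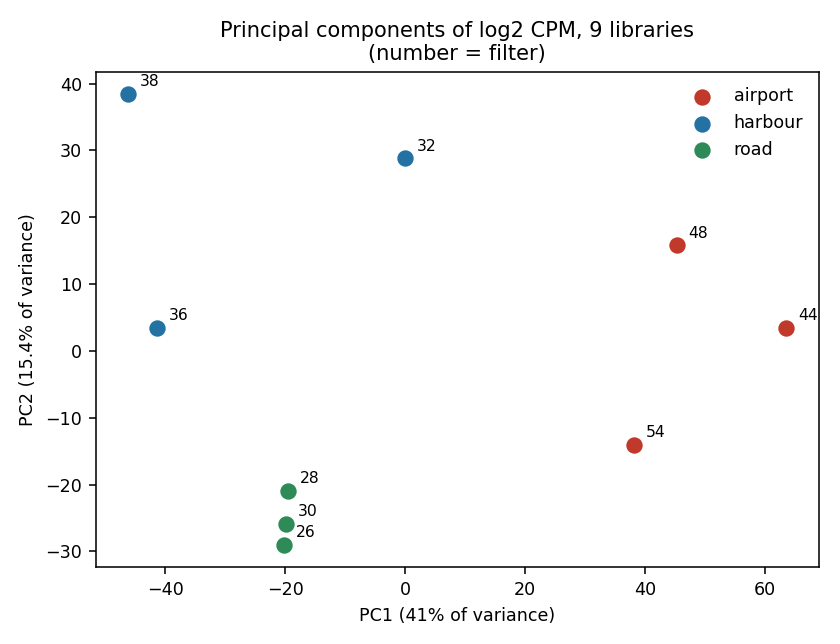
Principal components of log2 CPM in the 9 libraries, with the first component on the x axis and the second on the y axis; points are libraries, coloured by site and numbered by filter. The 3 airport libraries lie at 38.1 and above on the first component, and harbour filter 32 at 0.0332 is the nearest of the other 6.

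The comparison asked how the response to airport particles differed from that to particles of harbour and road air. Of 21152 genes tested, 1882 (8.9%) were higher and 1777 (8.4%) were lower in airport at an adjusted p under 0.05 in edgeR's quasi-likelihood test with Benjamini-Hochberg adjustment. Of these, 489 were higher and 490 lower by at least 2-fold. Every airport library lay above all 6 harbour and road libraries for 2003 genes (9.47%) and below all 6 for 2134 genes (10.1%). Taken against harbour alone, 1596 genes (7.55%) were higher and 1749 (8.27%) lower in airport, and against road alone 1307 (6.18%) were higher and 1091 (5.16%) lower. Harbour against road gave 10 genes (0.0473%), with 2539 at an unadjusted p under 0.05. The count of 3659 genes was 1467 without airport filter 44 (936 higher and 531 lower) and 1748 without harbour filter 36 and road filter 26 together. List counts given below for a fit that left out a library stand against the lower or higher total of that fit. The 3345 genes against harbour became 968, 1446 and 1637 without harbour filter 38, harbour filter 36 and airport filter 44. The 2398 genes against road became 795, 840, 1334 and 1088 without road filters 26, 28 and 30 and airport filter 44. A set of 1166 genes, 705 higher and 461 lower, passed in the fit of all 9 libraries and in each of the 9 fits that left out 1 library.

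**Figure D2:**
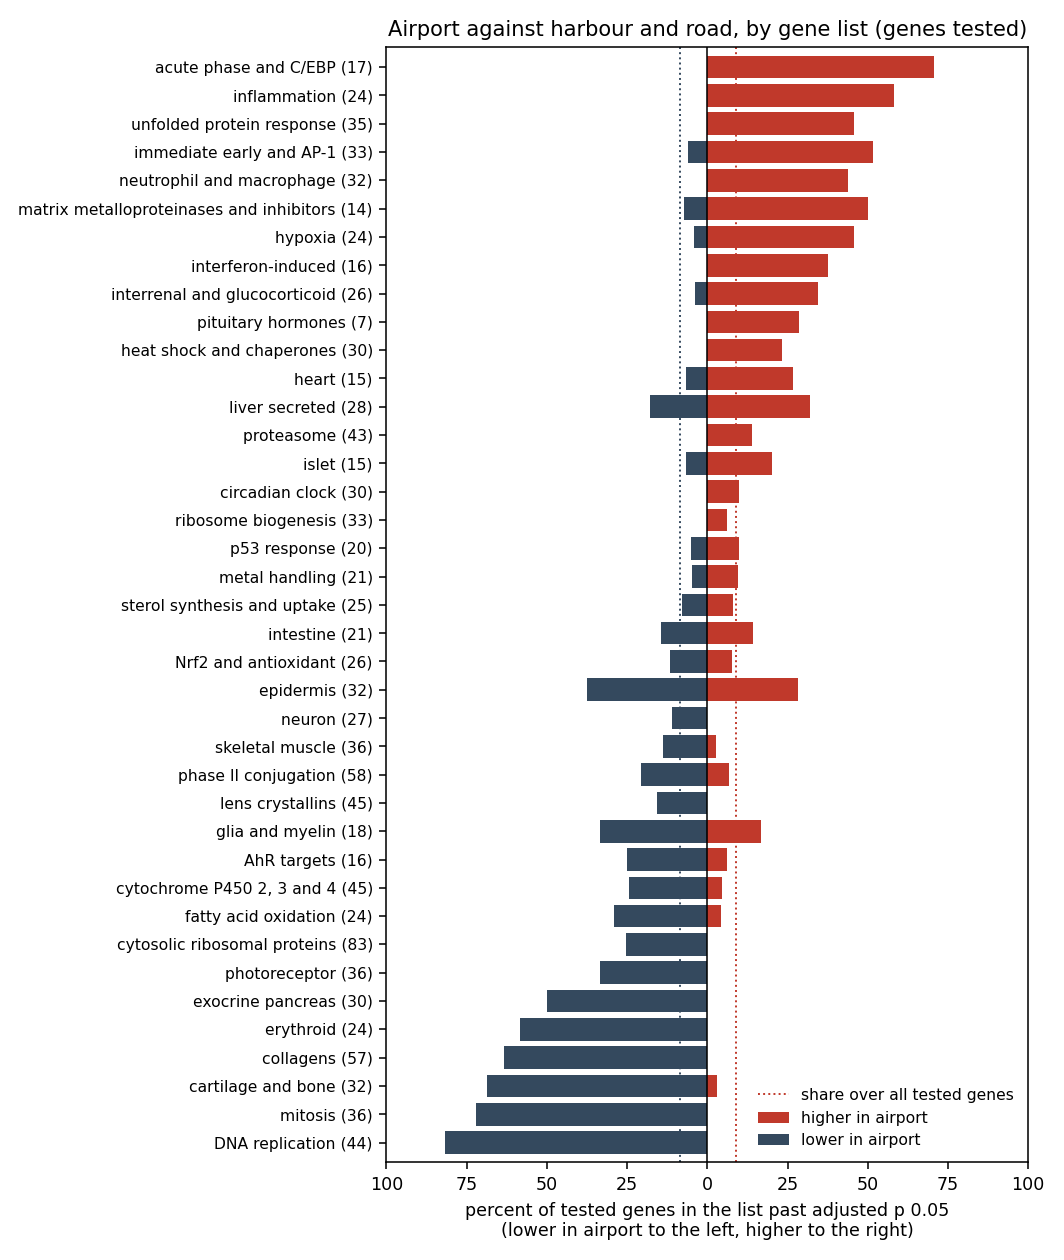
Percent of tested genes of each list that passed the adjusted p of 0.05 between airport and the harbour and road libraries, with genes higher in airport to the right and lower to the left of 0; the number of genes tested is in parentheses, and dotted lines mark the 8.9% and 8.4% of all genes. Acute phase, inflammation, unfolded protein response and immediate early genes lie to the right, and DNA replication, mitosis, cartilage and bone, and collagens to the left.

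The AhR-induced enzyme genes cyp1a, cyp1b1, cyp1c1 and ugt1b1 were lower in airport than in harbour and road extracts. These 4 fell among 16 AhR genes tested, 1 rose and 11 did not pass, with a median log2 fold change of -0.21 against -0.02 over all genes tested. cyp1a (ENSDARG00000098315), the monooxygenase most used as a readout of the receptor, was at 46.5, 49.5 and 35.3 CPM in airport filters 44, 48 and 54, against 80.81 to 368 CPM (median 189) in the 6 harbour and road libraries. All airport libraries lay below all of these, with 28.32 to 36.18 CPM in vehicle and 31.3 to 35.8 CPM in mock filter libraries. cyp1a averaged 43.8 ± 7.48 CPM in airport (SD, n = 3) and 200 ± 98.9 CPM in harbour and road (SD, n = 6), a log2 fold change, airport over harbour and road, of -2.20 ± 0.38 (SE, edgeR adjusted p = 0.00351). Against each site alone the value was -2.10 for harbour and -2.29 for road, and both passed. The road libraries spread the most for cyp1a, at 368, 194 and 80.81 CPM for filters 26, 28 and 30.

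cyp1b1, another monooxygenase of that family, was at 3.37, 3.06 and 4.29 CPM in airport filters 44, 48 and 54, against 7.24 to 19.8 CPM (median 13.3) in harbour and road. Vehicle and mock filter libraries had 2.57 to 3.21 CPM. It fell by 1.92 ± 0.27 in log2 (adjusted p = 0.00146 in edgeR). cyp1c1, of the same family, was at 13.3, 17.2 and 19.8 CPM in airport and at 27.3 to 44.06 CPM (median 36.79) in harbour and road, with 13.7 to 18.1 CPM in the controls. These groups did not overlap either, and its log2 fold change was -1.13 ± 0.16. ugt1b1, a glucuronosyltransferase of the second phase of detoxification, was at 5.96, 7.21 and 6.18 CPM in airport, against 12.5 to 18.5 CPM (median 14.2) in harbour and road and 5.71 to 10.2 CPM in the controls. Its log2 fold change was -1.18 ± 0.15 (adjusted p = 0.000969 in edgeR).

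Of the 16 AhR genes 11 did not pass. ahr2, the receptor that mediates most of this response in zebrafish, was at 178 to 194 CPM in airport and 156 to 207 CPM in harbour and road, and its log2 fold change of 0.08 ± 0.10 did not pass. ahrra, the AhR repressor, which the receptor induces, was at 0.518, 0.727 and 0.44 CPM in airport, against 0.622 to 1.38 CPM in harbour and road, with 0 to 0.224 CPM in vehicle and mock filter. The airport values overlapped the lower end of harbour and road and lay above every control, and the log2 fold change of -0.92 ± 0.36 did not pass. foxq1a, a transcription factor gene induced through the receptor in zebrafish embryos, was at 15.1, 22.3 and 8.63 CPM in airport, 14.5 to 48.9 CPM in harbour and road and 4.15 to 9.54 CPM in the controls, and did not pass. tiparp, nqo1, cyp1c2, cyp1d1, ahr1a, ahr1b, ahrrb and sult6b1 did not pass. sox9b, a transcription factor gene that the receptor represses in zebrafish, was the 1 riser, at 25.7 to 28.92 CPM in airport, 13.7 to 25.7 CPM in harbour and road and 18 to 34.7 CPM in the controls. Its adjusted p was 0.0492 in edgeR, and it passed in 1 of the 9 fits that left out a library, the one without harbour filter 32.

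**Figure D3:**
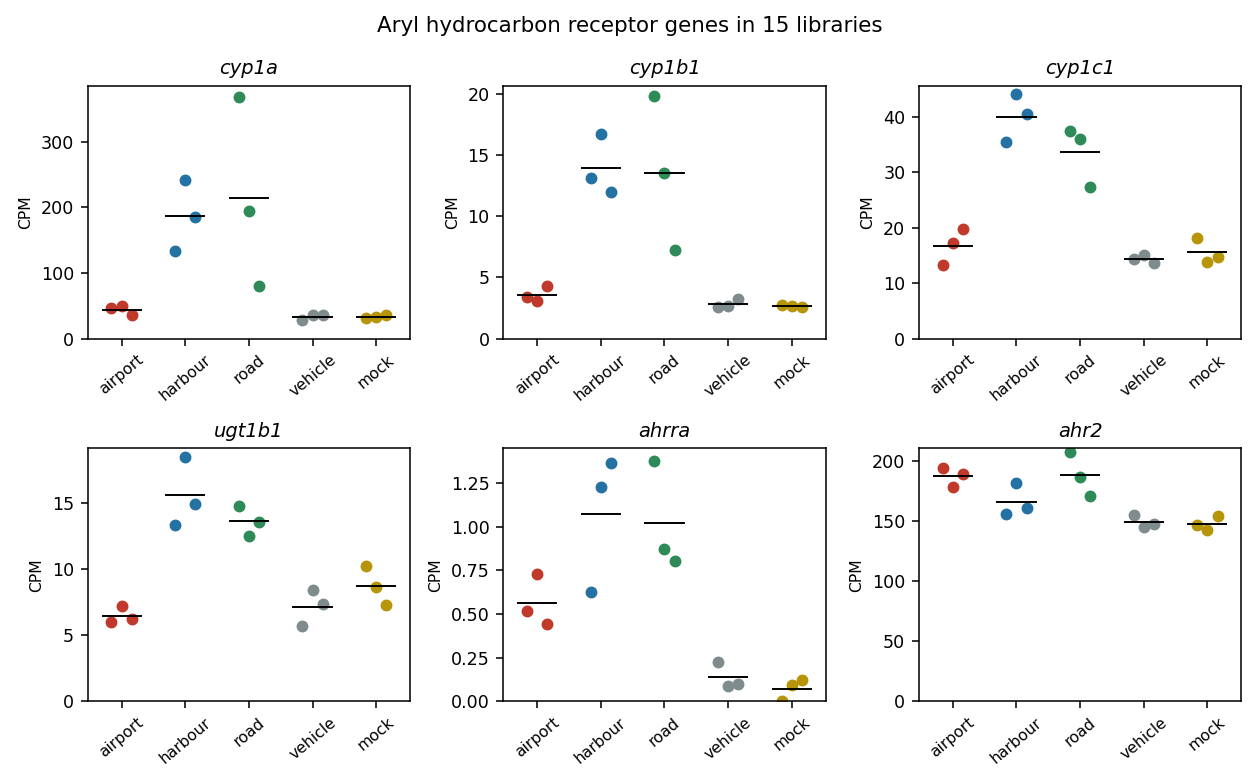
CPM of 6 AhR genes in the 15 libraries of series 35 on linear axes from 0; each point is a library and each black line the mean of 3. For cyp1a, cyp1b1, cyp1c1 and ugt1b1 the airport points lie below all harbour and road points and nearer to vehicle and mock filter, while ahr2 overlaps. Airport filters 44 and 48 for cyp1a, and 44 and 54 for cyp1b1, lie above every vehicle and mock filter point.

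Inflammatory genes were higher in airport. Of 24 inflammation genes tested 14 rose and the other 10 did not pass, with a median log2 fold change of 1.06, while 12 rose against harbour alone and 13 against road alone. Without airport filter 44 the count was 6 and the median 0.44, while the risers over all genes went from 1882 to 936. The list mean of log2 CPM, relative to the harbour and road libraries, was 2.4, 0.77 and 0.7 in airport filters 44, 48 and 54. It was 1.2, 1.48 and 1.22 in vehicle 3, mock filter 2 and mock filter 3, above airport filters 48 and 54. Vehicle 1, vehicle 2 and mock filter 1 were at -0.26, -0.28 and 0.13. socs3a, which damps cytokine signals, was at 127, 71.8 and 104 CPM in airport filters 44, 48 and 54, against 25.1 to 41.8 CPM (median 32) in harbour and road. It averaged 101 ± 28 CPM in airport (SD, n = 3) and 31.6 ± 6.19 CPM in harbour and road (SD, n = 6), and rose by 1.68 ± 0.18 in log2 (adjusted p = 0.000617 in edgeR). The lowest airport library stood above the highest of the other 6, while mock filters 2 and 3 had 75.1 and 69.9 CPM and the other 4 controls 15.3 to 25.4 CPM. nfkbiaa, the inhibitor of NF-kB that NF-kB itself induces, was at 89.6, 52.8 and 67 CPM in airport and 25.3 to 35.1 CPM in harbour and road. It rose by 1.12 ± 0.15, and mock filters 2 and 3 were inside its airport range at 63.1 and 55.6 CPM. ptgs2b, an enzyme of prostaglandin synthesis, was at 57.6, 37.6 and 21.8 CPM in airport and 3.52 to 16.5 CPM in harbour and road, with 4.8 to 12.4 CPM in the controls, and rose by 2.23 ± 0.38. il4r.1, an interleukin receptor chain, rose by 1.37 ± 0.22.

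Acute-phase genes moved with them. Of 17 genes of the acute-phase and C/EBP list 12 rose and 5 did not pass, with a median of 0.93, and 11 to 14 rose when any 1 library was left out. The list mean on the scale above was 1.57, 0.69 and 0.68 in airport filters 44, 48 and 54. It was 0.77, 0.76 and 0.71 in vehicle 3, mock filter 2 and mock filter 3. Vehicle 1, vehicle 2 and mock filter 1 were at -0.11, -0.22 and 0.04. cebpd, a transcription factor gene of the acute phase, was at 350, 308 and 319 CPM in airport, against 141 to 189 CPM (median 153.4) in harbour and road and 104 to 196 CPM in vehicle and mock filter. No library of the other groups reached the airport level, and cebpd rose by 1.04 ± 0.10 (adjusted p = 0.000376 in edgeR). agt, the precursor of angiotensin, was at 173, 137 and 110 CPM in airport and 19.6 to 55.4 CPM in harbour and road, with harbour filter 32 the highest of these and 19.4 to 34.9 CPM in the controls. agt rose by 2.34 ± 0.28 (adjusted p = 0.000799 in edgeR), and passed with any 1 library left out. fgb, a fibrinogen chain of blood clotting, was at 210, 189 and 199 CPM in airport, 69.1 to 129 CPM in harbour and road and 63 to 106 CPM in the controls, a rise of 1.14 ± 0.17. The complement genes c3a.1 and cfb rose by 1.46 ± 0.21 and 1.46 ± 0.18, but their airport levels were not above all controls. c3a.1 was at 870, 432 and 586 CPM in airport, 181 to 334 CPM in harbour and road, and 859, 865 and 790 CPM in vehicle 3, mock filter 2 and mock filter 3.

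Interferon-induced and leukocyte genes were higher in airport, and also in 3 of the 6 control libraries. Of 16 interferon-induced genes 6 rose and 10 did not pass, with a median of 1.01. stat1b, a transcription factor gene of the interferon response, was at 26.6, 28.28 and 24.7 CPM in airport and 0.426 to 7.56 CPM (median 1.18) in harbour and road, and rose by 3.63 ± 0.60 (adjusted p = 0.00272 in edgeR). It was also at 17.5, 19.1 and 23.8 CPM in vehicle 3, mock filter 2 and mock filter 3, and the other 3 controls had 0.628 to 6.68 CPM. mxc, an antiviral GTPase, was at 5.08, 1.82 and 1.57 CPM in airport and 0.86 to 2.22 CPM in harbour and road, and did not pass, whereas vehicle 3, mock filter 2 and mock filter 3 had 79, 57 and 61.9 CPM. Of 32 neutrophil and macrophage genes 14 rose and 18 did not pass, with a median of 0.70 and a count of 7 without airport filter 44. marco, a scavenger receptor of macrophages, was at 12.5, 13.4 and 10.1 CPM in airport, 3.47 to 6.98 CPM in harbour and road and 25.5, 24.2 and 23 CPM in vehicle 3, mock filter 2 and mock filter 3. mpx, the neutrophil myeloperoxidase gene, was at 47.7, 45.6 and 28.75 CPM in airport and 16.7 to 32.9 CPM in harbour and road. These overlapped, and its rise of 0.91 ± 0.21 did not pass without filter 44, where it was at 0.80. The summed level of the 37 genes of this list in the count table, tested or not, ran from 2820 to 3100 CPM in airport. It ran from 1300 to 2310 CPM in harbour and road. The leukocyte part in the inflammatory results was not tested.

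**Figure D4:**
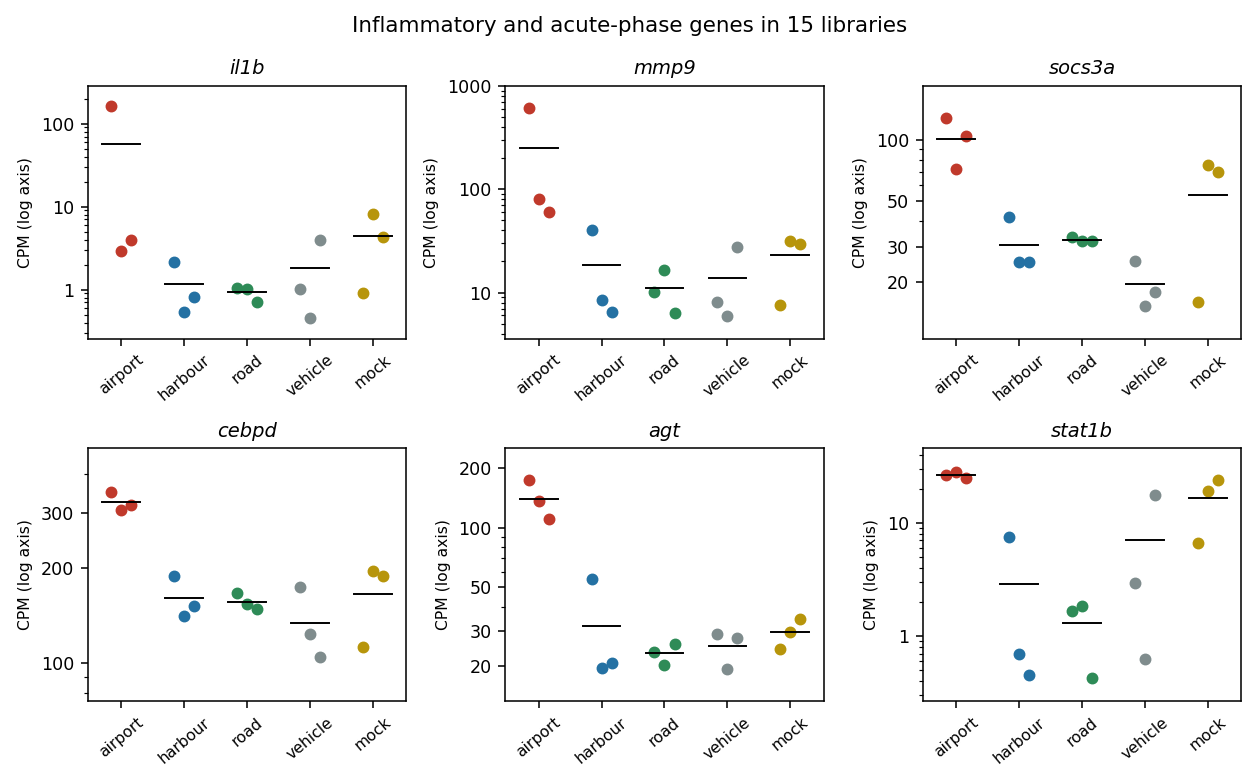
CPM of 6 inflammatory, acute-phase and interferon genes in the 15 libraries of series 35 on log axes; each point is a library and each black line the mean of 3. Airport points lie above all harbour and road points for each gene, and filter 44 stands far above filters 48 and 54 for il1b and mmp9. For stat1b 1 vehicle and 2 mock filter libraries at 17.5 to 23.8 CPM come close to airport. For il1b mock filters 2 and 3 lie above airport filters 48 and 54, and for socs3a mock filter 2 lies above airport filter 48.

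The airport filters differed among themselves, and filter 44 set the size of several of the largest rises, but not of all. The log2 rise of stat1b was 3.63 with and 3.65 without filter 44, and that of agt 2.34 and 2.18. Below, il1b, itln3, cxcl8a, IRAK3, batf2, plac8.2, hp and ENSDARG00000114451 were chosen for their wide spread among the airport filters. These genes therefore cannot show how often a rise rested on filter 44. il1b, the inflammatory cytokine interleukin 1 beta, was at 164 CPM in filter 44 and 2.91 and 3.98 CPM in filters 48 and 54, against 0.533 to 2.18 CPM in harbour and road. All 3 airport libraries lay above the other 6, yet vehicle 3, mock filter 2 and mock filter 3 had 3.95, 8.15 and 4.36 CPM. Its log2 fold change of 5.72 ± 1.01 (adjusted p = 0.00384 in edgeR) became 1.73 without filter 44, and passed. mmp9, a metalloproteinase that cuts matrix and is made by leukocytes and damaged skin, was at 611, 79.6 and 60 CPM in airport filters 44, 48 and 54 and 6.34 to 40.4 CPM in harbour and road, with 27.3 to 31.8 CPM in vehicle 3, mock filter 2 and mock filter 3. Its rise of 4.08 ± 0.70 became 2.26 without filter 44. itln3, an intelectin of mucosal defence, was at 128, 2.96 and 3.5 CPM in airport and 0.222 to 1.03 CPM in harbour and road, a rise of 6.34 ± 1.03 that became 2.61 without filter 44. The chemokine cxcl8a, which calls neutrophils, was at 41.6, 1.66 and 0.957 CPM in airport and 0.32 to 0.978 CPM in harbour and road. Its log2 rise of 4.42 was 0.95 without filter 44 and no longer passed. The same held for the chemokine cxcl18b (3.49 with and 0.93 without filter 44), mmp13a (3.44 and 1.36), the signalling regulator IRAK3 (3.99 and 1.08), batf2 (4.50 and 1.27) and plac8.2 (4.61 and 2.89). hp, the haptoglobin gene, was at 18.9 CPM in filter 44 and at 0.208 and 0.421 CPM in filters 48 and 54, inside the 0.178 to 0.607 CPM of harbour and road, and its log2 fold change of 3.92 turned to -0.28 without filter 44. The gene with no symbol ENSDARG00000114451 was at 435, 23.7 and 16.5 CPM in airport and 2.48 to 14.3 CPM in harbour and road, and its rise of 4.94 became 1.99 without filter 44.

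Early-response and protein-folding genes were higher in airport. Of 33 immediate early and AP-1 genes 17 rose, 2 fell and 14 did not pass, with a median of 0.57, and 10 rose without filter 44. btg2, an inhibitor of cell division, was at 123, 108 and 107 CPM in airport and 27.5 to 52.7 CPM in harbour and road, and rose by 1.55 ± 0.17 (adjusted p = 0.000681 in edgeR). The AP-1 subunit gene junba was at 65.8, 33.2 and 33.9 CPM in airport and 10 to 21.3 CPM in harbour and road, with 9.06 to 20.7 CPM in the controls, and rose by 1.81 ± 0.25. fosl1a, another AP-1 subunit gene, was at 185, 38.82 and 59.4 CPM in airport and 2.73 to 31.2 CPM in harbour and road, and did not pass without filter 44, where its log2 fold change was 2.18. The fallers were klf2a, a transcription factor gene of the endothelium, and myca, at -1.22 and -0.58, and neither passed without filter 44 (-1.09 and -0.55).

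The unfolded protein response, by which cells answer misfolded protein in the endoplasmic reticulum, gave 16 risers among 35 genes tested. The other 19 did not pass, the median was 0.57, and 7 rose without filter 44. dnajb9b, a chaperone partner of the endoplasmic reticulum, was at 10.7, 6.8 and 6.99 CPM in airport and 1.52 to 3.91 CPM in harbour and road, and rose by 1.88 ± 0.27 (adjusted p = 0.00146 in edgeR). asns, asparagine synthetase, was at 35.8, 34.4 and 29.8 CPM in airport and 9.56 to 20.9 CPM in harbour and road, and rose by 1.15 ± 0.21. ppp1r15b, which restores translation after stress, rose by 0.93 ± 0.14. The controls stayed at or under 4.51 CPM for dnajb9b, 14.3 CPM for asns and 5.76 CPM for ppp1r15b, below every airport library.

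Some heat shock genes were higher in airport. Of 30 tested, 7 rose against harbour and road together, 3 against harbour alone, where 1 fell, and 16 against road alone. These counts do not show a difference between the sites, and none of the 30 passed in the edgeR test of harbour against road (lowest adjusted p 0.0993). The median log2 fold change was 0.264 against both sites, 0.0528 against harbour alone and 0.595 against road alone. Relative to the mean of the harbour and road libraries, the list mean of log2 CPM was 0.49, 0.51 and 0.51 in airport filters 44, 48 and 54. It was 0.61 in harbour filter 32, above airport, and 0.08 and 0.2 in harbour filters 36 and 38. Road filters 26, 28 and 30 were at -0.5, -0.37 and -0.02. The 7 risers became 13 without harbour filter 32 and 3 or 4 without any 1 of the other 8 libraries. bag3, a co-chaperone, was at 23.7, 21.8 and 23.9 CPM in airport, 14.1 to 19 CPM in harbour and 12.8 to 14.1 CPM in road, and rose by 0.64 ± 0.13 (adjusted p = 0.00672 in edgeR). hsp70.3, an inducible chaperone gene with near-identical copies whose reads could be split between them, was at 51.7, 44.8 and 45.5 CPM in airport, 44.7 CPM in harbour filter 32 and 7.7 to 18.1 CPM in the other 5. It passed over all 9 libraries (adjusted p = 0.0366 in edgeR), and in 1 of the 9 fits that left out a library, the one without harbour filter 32, where its log2 fold change was 1.94. Of 43 proteasome genes 6 rose (14%, against 8.9% of all genes), among them psmd11a by 0.53 ± 0.10. The count was 3 without airport filter 44 and 11 without either airport filter 54 or harbour filter 32.

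Genes that answer to glucocorticoids and to low oxygen were higher in airport. Of 26 interrenal and glucocorticoid genes 9 rose, 1 fell and 16 did not pass, with 4 risers without filter 44. sgk1, a kinase gene induced by steroids, was at 311, 312 and 276 CPM in airport, against 104 to 182 CPM (median 150.3) in harbour and road and 85.9 to 186 CPM in the controls. It rose by 1.03 ± 0.16 (adjusted p = 0.00211 in edgeR). hsd20b2, a steroid dehydrogenase of cortisol breakdown in zebrafish, was at 85.8, 77.4 and 100 CPM in airport, 61.4 CPM in harbour filter 32 and 18.3 to 32.2 CPM in the other 5, a rise of 1.51 ± 0.29. fkbp5, a chaperone partner of the glucocorticoid receptor, was at 476, 488 and 457 CPM in airport, 67.9 to 337 CPM in harbour and road and 15.2 to 226 CPM in the controls, and its rise of 1.45 did not pass without filter 44 (1.47) or filter 48 (1.45). The steroidogenic genes star, CYP11A1, cyp17a1, cyp17a2 and cyp21a2 did not pass, and cyp11c1, of the last step of cortisol synthesis, was the 1 that fell, a call that did not pass with any 1 library left out (-1.01 to -0.74).

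Of 24 hypoxia genes 11 rose and 1 fell, slc2a1a of glucose uptake, with 6 risers without filter 44; the fall of slc2a1a did not pass without any 1 of the airport filters or harbour filters 36 and 38 (-0.49 to -0.37). ndrg1b, a gene induced by low oxygen, was at 104, 101 and 82.9 CPM in airport, 54.5 CPM in harbour filter 32 and 16.2 to 42.8 CPM in the other 5, and rose by 1.55 ± 0.31 (adjusted p = 0.00639 in edgeR). adma, adrenomedullin, was at 12.08, 14.2 and 12.6 CPM in airport and 5.21 to 8.76 CPM in harbour and road, with 5.88 to 6.91 CPM in the controls. Glycolysis genes of the list such as ldha (-0.07) and pgk1 (-0.20) did not pass.

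Among pituitary hormones, prl, prolactin, which governs salt balance in fresh water, was at 11.4, 13.4 and 10.4 CPM in airport, against 6.89 CPM in harbour filter 32 and 0.556 to 3.28 CPM in the other 5. The vehicle libraries had 0.345 to 0.762 CPM and the mock filter libraries 4.51, 0.828 and 0.606 CPM. prl rose by 1.96 ± 0.44 (adjusted p = 0.0112 in edgeR), and 2 of 7 pituitary genes passed, the other being smtlb, somatolactin, which did not pass without filter 48, where it was at 1.42.

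Genes of DNA replication and mitosis were lower in airport. Of 44 replication genes 36 fell and the other 8 did not pass, with none above 0 and a median log2 fold change of -1.03. Of 36 mitosis genes 26 fell and 10 did not pass, with a median of -1.01. rrm2 (ribonucleotide reductase, which makes the building blocks of DNA) was at 3.84, 6.8 and 6.36 CPM in airport, against 22.9 to 57.9 CPM (median 30.4) in harbour and road, and fell by 2.62 ± 0.32 (adjusted p = 0.000868 in edgeR). All airport libraries were far below the other 6. The vehicle libraries had 24.9, 22.3 and 9.33 CPM of rrm2 and the mock filter libraries 6.225, 10.2 and 5.98 CPM. Mock filters 1 and 3 thus lay inside the airport range. mcm2, a subunit of the replicative helicase, was at 13.1, 16.7 and 18.3 CPM in airport, 34.2 to 60.5 CPM in harbour, 30.8 to 39 CPM in road and 29.6 to 45.6 CPM in the controls, and fell by 1.42 ± 0.23. prim2 of the primase and pola1 of DNA polymerase alpha fell by 1.44 ± 0.23 and 1.32 ± 0.23. racgap1, which acts in the last step of cell division, was at 5.24, 5.6 and 4.15 CPM in airport, 10.1 to 18.4 CPM in harbour and 9.14 to 10.1 CPM in road, and fell by 1.28 ± 0.24.

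The number of calls in these lists changed with the library left out, while their medians stayed near the same value. The 36 replication genes became 7 without airport filter 44, 19 without airport filter 54 and 21 without harbour filter 36. Over all genes tested, the 1777 falls became 531, 1219 and 1139 in the same fits. The medians of the replication list lay between -1.16 and -0.88 over the 9 fits that left out 1. The 26 mitosis genes became 2, 13 and 8 without airport filters 44, 48 and 54 and 11 without harbour filter 36, with medians between -1.09 and -0.80. Against harbour alone 39 replication and 33 mitosis genes fell, and against road alone 17 and 6. None of these genes passed in the edgeR test of harbour against road (lowest adjusted p 0.106 for replication and 0.13 for mitosis), so the unequal counts do not show that the sites differed. The mean log2 CPM of the mitosis list relative to the mean of the 6 harbour and road libraries was -0.98, -0.80 and -0.94 in airport filters 44, 48 and 54. It was -0.28, 0.49 and 0.75 in harbour filters 32, 36 and 38 and -0.36, -0.31 and -0.28 in road filters 26, 28 and 30. Controls lay between -0.12 and 0.28, above airport. Cytosolic ribosomal protein genes gave 21 falls among 83, a count that was 0 without airport filter 44, 1 without filter 54 and 45 without filter 48, and 12 without harbour filter 36, harbour filter 38 or road filter 26.

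**Figure D5:**
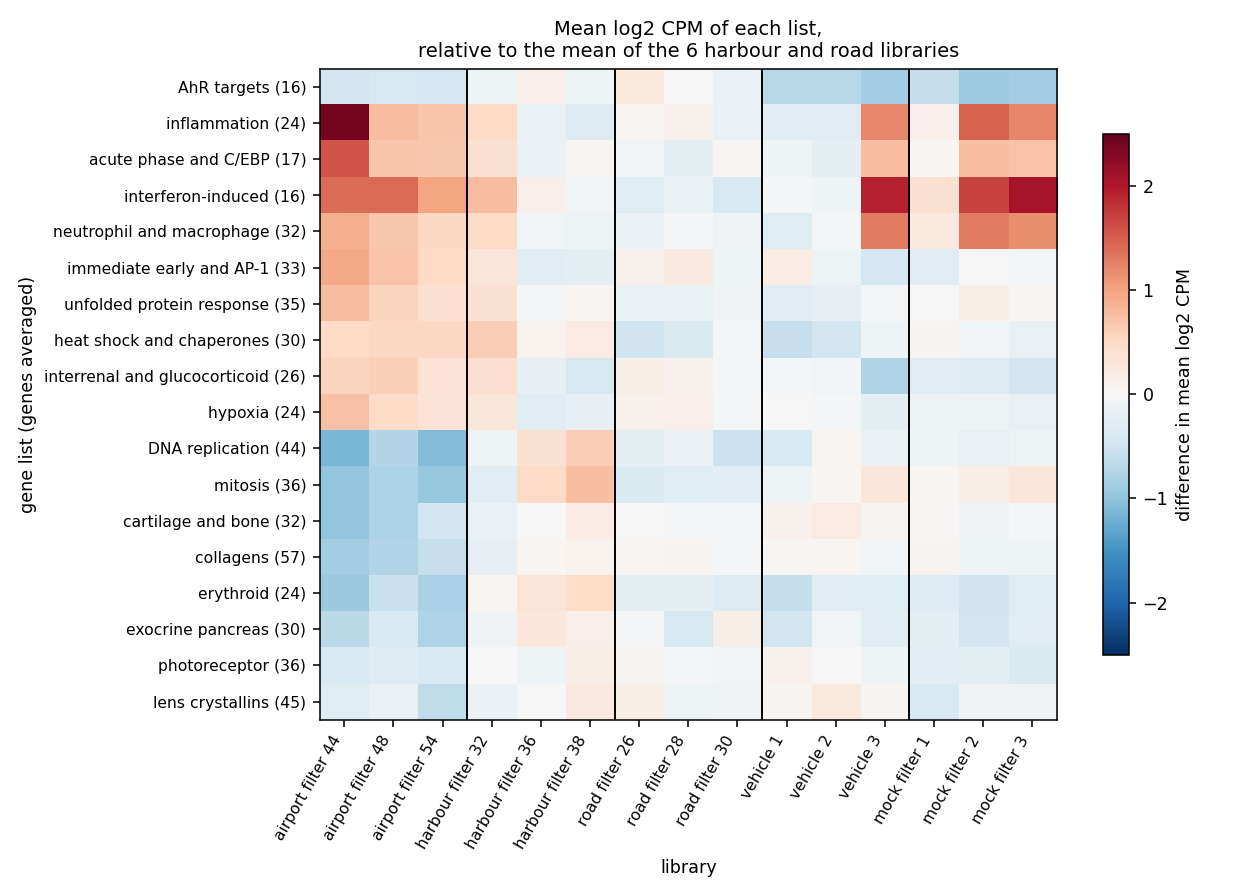
Mean log2 CPM of 18 gene lists in the 15 libraries of series 35, as the difference from the mean of the 6 harbour and road libraries; red is higher, blue is lower, and lists run down the page with the number of genes averaged. Airport is high for inflammation and low for mitosis and collagens. Harbour filter 32 lies between airport and the other harbour libraries for several lists. Vehicle 3, mock filter 2 and mock filter 3 are high for interferon-induced, inflammation, acute-phase, and neutrophil and macrophage genes.

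Genes of the extracellular matrix and skeleton were lower in airport. Of 57 collagen genes 36 fell and 21 did not pass, with a median of -0.69, and 25 to 39 fell with any 1 library left out. Of 32 cartilage and bone genes 22 fell and 1 (sox9b) rose, with a median of -0.90, and 18 to 23 fell with any 1 library left out. col5a3b, a chain of a fibril-forming collagen, was at 28, 30.5 and 26.92 CPM in airport, against 69 CPM in harbour filter 32 and 104 to 129 CPM in the other 5. It averaged 28.5 ± 1.81 CPM in airport (SD, n = 3) and 112 ± 23 CPM in harbour and road (SD, n = 6), with 101 to 123 CPM in the controls, and fell by 1.98 ± 0.18 (adjusted p = 0.000276 in edgeR). col14a1b, which links collagen fibrils, was at 13.8, 13.6 and 13.9 CPM in airport and 28.68 to 51.1 CPM in harbour and road, and fell by 1.64 ± 0.16. col1a1a, the main chain of bone and skin collagen, was at 1041, 1191 and 1461 CPM in airport and 2337 to 3065 CPM in harbour and road, with 2244 to 3169 CPM in the controls, and fell by 1.18 ± 0.14. col7a1, which anchors the epidermis to the tissue below, was at 7.36, 5.5 and 10.9 CPM in airport and 18.7 to 39.7 CPM in harbour and road, and fell by 2.09 ± 0.26. Among cartilage genes, col9a3 was at 60.5, 64.5 and 88.1 CPM in airport and 148 to 235 CPM in harbour and road, and fell by 1.39 ± 0.16. sp7, which drives osteoblasts to mature, was at 2.44, 3.17 and 3.18 CPM in airport and 5.92 to 7.89 CPM in harbour and road, with 4.59 to 6.83 CPM in the controls, and fell by 1.25 ± 0.17.

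Some genes of enzymes that cut matrix, and of their inhibitors, went the other way. Of 14 metalloproteinase and inhibitor genes 7 rose (50%, against 8.9% of all genes) and 1 fell, mmp11b. The median log2 fold change was 0.34, and 9 of the 14 were above 0. The fall of mmp11b did not pass without airport filter 44 or 48. The risers became 4 without any 1 of airport filters 44 and 48 and harbour filters 36 and 38. mmp14b, a metalloproteinase of the cell membrane, was at 148, 97.5 and 117 CPM in airport and 58.4 to 76 CPM in harbour and road, with 68.2 to 77.1 CPM in the controls, and rose by 0.84 ± 0.13 (adjusted p = 0.00229 in edgeR). timp2b, an inhibitor of these enzymes, was at 99.6, 28.5 and 27.8 CPM in airport and 9.65 to 23.7 CPM in harbour and road, and its rise of 1.94 ± 0.37 became 1.08 without filter 44.

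Epidermal genes split in both directions. Of 32 tested 12 fell, 9 rose and 11 did not pass, and 5 fell without airport filter 44 and 6 without filter 54. krt5, a keratin of the basal layer, was at 506, 566 and 914 CPM in airport, against 1534 to 2827 CPM (median 2593) in harbour and road and 1950 to 3008 CPM in the controls, and fell by 1.88 ± 0.24 (adjusted p = 0.000916 in edgeR). krtt1c19e, another keratin of basal cells, was at 126, 146 and 209 CPM in airport and 316 to 810 CPM in harbour and road, and fell by 1.93 ± 0.27. Keratins have near-identical copies, so single members are uncertain where counting could split reads. lgals1l1, a galectin, was at 9.8, 11.31 and 8.71 CPM in airport and 27.9 to 76.8 CPM in harbour and road, but vehicle 1 had 8.34 CPM, and it fell by 2.14 ± 0.29. The risers included genes of cell contact. epcam, an epithelial adhesion molecule, was at 589, 499 and 510 CPM in airport, 145 to 308 CPM in harbour and road and 182 to 239 CPM in the controls, and rose by 1.37 ± 0.18. cldnf, a tight junction claudin, was at 34.1, 26.73 and 21.6 CPM in airport and 5.51 to 12.8 CPM in harbour and road. tp63, the transcription factor of basal epidermis, was at 59.4, 62.6 and 59.5 CPM in airport and 30.19 to 50.6 CPM in harbour and road, and rose by 0.66 ± 0.14.

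Genes of the eye, blood and exocrine pancreas were lower in airport. Of 36 photoreceptor genes 12 fell and 24 did not pass, with a median of -0.30, and 9 to 14 fell with any 1 library left out. opn1lw2, a red cone opsin, was at 202, 233 and 206 CPM in airport, against 438 to 585 CPM (median 494) in harbour and road and 298 to 496 CPM in the controls. It fell by 1.24 ± 0.13 (adjusted p = 0.000376 in edgeR). The green and blue cone opsins opn1mw1 and opn1sw2 fell by 1.17 ± 0.16 and 1.03 ± 0.16, while the rod opsin rho, at 682 to 850 CPM in airport and 711 to 1103 CPM in harbour and road, did not pass. Of 45 lens crystallins 7 fell (15.6%, against 8.4% of all genes). The count was 1 without filter 44, 2 without filter 54 and 4 without harbour filter 38 or road filter 26. cryaa was at 74.3, 72.1 and 65.2 CPM in airport and 93.6 to 113 CPM in harbour and road, and fell by 0.51 ± 0.09.

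Of 24 erythroid genes 14 fell and 10 did not pass, with a median of -0.85, and 3 fell without airport filter 44 and 8 without filter 54. The embryonic globin hbbe1.3 was at 25.7, 39.1 and 26.76 CPM in airport, 110 to 182 CPM in harbour and 75.8 to 99.9 CPM in road, and fell by 1.92 ± 0.25 (adjusted p = 0.00107 in edgeR). The controls had 46.3 to 98.9 CPM. Globin genes are near-identical, so the split of reads among them is uncertain, and single-copy slc4a1a, the anion exchanger of red cells, was at 17.1, 23.2 and 14.5 CPM in airport, 42.5 to 65.8 CPM in harbour, 24.9 to 37.7 CPM in road and 15.7 to 31.7 CPM in the controls. Airport overlapped the controls for slc4a1a, and its fall of 1.27 did not pass without filter 44 (-1.21) or filter 54. Against harbour alone 17 erythroid genes fell, and against road alone 7, where 8.27% and 5.16% of all genes fell. These unequal counts do not show a difference between harbour and road.

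Of 30 genes of the exocrine pancreas 15 fell and the other 15 did not pass, with a median of -0.63, and 7 fell without filter 44. pla2g1b, a secreted phospholipase, was at 15, 19.3 and 21.3 CPM in airport and 27 to 46.3 CPM in harbour and road, with 29.4 to 54 CPM in the controls, and fell by 1.06 ± 0.18 (adjusted p = 0.00291 in edgeR). ela2l, an elastase of a family with near-identical copies, was at 286, 398 and 310 CPM in airport, 453 to 819 CPM in harbour and road and 408 to 674 CPM in the controls, and fell by 0.98 ± 0.18.

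The liver gave members in both directions. Of 28 genes of secreted liver proteins 9 rose and 5 fell, and the fallers became 3 without harbour filter 36 or 38, 2 without airport filter 48 or 54, and none without filter 44. Besides fgb and c3a.1, serpina1l, a protease inhibitor of plasma, was at 497, 575 and 503 CPM in airport and 245 to 316 CPM in harbour and road, and rose by 0.96 ± 0.10 (adjusted p = 0.000617 in edgeR). The controls had 228 to 417 CPM. apom, an apolipoprotein, was at 110, 125 and 146 CPM in airport and 53.9 to 72.8 CPM in harbour and road, and rose by 1.00 ± 0.12. fabp10a, the liver fatty acid binding protein that marks hepatocytes, was at 112, 170 and 154 CPM in airport and 198 to 354 CPM in harbour and road. It fell by 0.84 ± 0.18, but did not pass without filter 44, where it was at -0.66.

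Cytochrome P450 families 2, 3 and 4 metabolise drugs, steroids and fatty acids. Of their 45 genes tested 11 fell (24.4%) and 2 rose (4.44%), against 8.4% and 8.9% of all genes. Without airport filters 44, 48 and 54 and harbour filter 36 in turn, 5, 7, 6 and 7 fell. The number that rose ran from 0 without airport filter 44 to 4 without harbour filter 32. cyp2k19 was at 19.6, 25.2 and 23.5 CPM in airport and 33.3 to 49.6 CPM in harbour and road, with 33.9 to 50.4 CPM in the controls, and fell by 0.89 ± 0.14 (adjusted p = 0.00244 in edgeR). Of 58 conjugating enzymes of the second phase of detoxification 12 fell (20.7%) and 4 rose (6.9%), with 6 fallers without filter 44. In both lists the share that rose lay under that of all genes. The 4 risers became 1 without airport filter 54, 2 without airport filter 48, harbour filter 36, harbour filter 38 or road filter 30, and 8 without harbour filter 32. ugt1b5, a glucuronosyltransferase, was at 10.8, 11.6 and 12.14 CPM in airport, 17.7 to 34 CPM in harbour and road and 11.6 to 17.6 CPM in the controls, and fell by 1.12 ± 0.18. sult3st5, a sulfotransferase, was at 1.61 to 3.22 CPM in airport and 3.96 to 11.12 CPM in harbour and road, and fell by 1.75 ± 0.31. Of 24 genes of fatty acid oxidation 7 fell (29.2%) and 1 rose (4.17%), with 2 fallers without filter 44. The 1 riser did not pass without any 1 of the airport filters or harbour filters 36 and 38.

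Heart and glial lists held genes in both directions. Of 15 heart genes 4 rose and 1 fell, with 2 risers without airport filter 44, airport filter 54 or any 1 road filter. nppa and nppb, natriuretic peptide hormones that the heart makes under load, both rose. nppa was at 13.6, 16.9 and 13.2 CPM in airport and 5.07 to 10.4 CPM in harbour and road, with 5.24 to 9.94 CPM in the controls, and rose by 0.85 ± 0.18 (adjusted p = 0.0087 in edgeR). nppb was near the low-count limit, at 1.92, 1.297 and 1.302 CPM in airport and 0.142 to 0.48 CPM in harbour and road, and rose by 2.32 ± 0.35. smyd1b, a methyltransferase that builds muscle filaments, fell by 1.18 ± 0.16. Of 18 genes of glia and myelin 6 fell (33.3%) and 3 rose (16.7%). The fallers became 1, 2 and 3 without airport filter 44, airport filter 48 and road filter 28, and the risers became 1 without airport filter 44. gfap, the filament protein of astroglia, was at 118, 123 and 95 CPM in airport and 163 to 217 CPM in harbour and road, with 166 to 196 CPM in the controls, and fell by 0.77 ± 0.12. glula, glutamine synthetase, was at 1325, 1215 and 1010 CPM in airport, 946 CPM in harbour filter 32 and 450 to 691 CPM in the other 5, and rose by 0.96 ± 0.21.

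Antioxidant, metal and DNA damage genes moved little as lists. Of 26 Nrf2 and antioxidant genes 2 rose and 3 fell with a median of 0.06, of 21 metal handling genes 2 rose and 1 fell, and of 20 p53 genes 2 rose and 1 fell, shares that lie near the 8.9% and 8.4% of all genes. The numbers of these calls changed with the library left out, within 0 to 4, except that of p53 fallers, which stayed at 1. txn, thioredoxin, was at 52, 49.8 and 38.4 CPM in airport and 18.7 to 35.9 CPM in harbour and road, and rose by 0.84 ± 0.17 (adjusted p = 0.00741 in edgeR). sod1, which disposes of superoxide, was at 63.4, 72.3 and 66.5 CPM in airport and 94.6 to 128 CPM in harbour and road, and fell by 0.65 ± 0.11. Both txn and sod1 passed with any 1 library left out. mdm2, the p53 inhibitor and target, was at 45.4 to 51.7 CPM in airport and 35.3 to 42.1 CPM in harbour and road. Its rise of 0.37 ± 0.09 did not pass without filter 44 (0.38) or filter 54. Neuron markers likewise gave 3 falls among 27, and 1 without filter 44, with tuba1c, a tubulin of growing and regenerating neurons in zebrafish, at 157, 182 and 164 CPM in airport and 309 to 560 CPM in harbour and road.

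Harbour and road differed from each other in 10 genes, named here after their values were seen. clca1, a calcium-activated chloride channel regulator, was at 28.2, 24.3 and 28.1 CPM in harbour and 10.4, 6.73 and 10.6 CPM in road, and at 10.5 to 17.2 CPM in airport. Mock filters 2 and 3, at 39.99 and 36.23 CPM, and vehicle 3 lay above harbour for clca1. ces3, a carboxylesterase, was at 54.4, 73.9 and 94.1 CPM in harbour and 19.9 to 30.7 CPM in road, and airport at 24 to 33.1 CPM overlapped road. The controls spread over the levels of both sites for ces3, from 25.8 CPM in mock filter 1 to 104 CPM in vehicle 3. tnfrsf14, a receptor of the tumour necrosis factor family, was at 0.708 to 1.82 CPM in harbour and 6.53 to 12.8 CPM in road, and pcdh1g30, a protocadherin, at 12.2 to 18.8 CPM in harbour and 48 to 58.8 CPM in road. The controls ran from 1.68 CPM in vehicle 3 to 9.71 CPM in mock filter 1 for tnfrsf14, over the levels of both sites. For pcdh1g30 they were at 47.5 to 63.5 CPM, near road and above harbour. The other 6 have provisional names (zgc:195170, zgc:174259 and 4 si: genes). No AhR gene was among the 10. The log2 difference of cyp1a, harbour over road, was -0.20 ± 0.40, and that of cyp1b1 0.04 ± 0.29. The 10 calls rested on few libraries: 191 genes passed without harbour filter 32, 40 without road filter 30 and 25 without airport filter 54, while 1 gene passed without harbour filter 38 or road filter 26, 4 without airport filter 48, 6 without road filter 28, and 0 without harbour filter 36; DESeq2 called 326.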

How the data were processed

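Poly-A RNA of pools of 10 zebrafish embryos was sequenced in paired reads after a strand-marking library preparation, per the labels' protocols, and the deposited table holds read counts per gene for 25432 genes in 33 libraries, made by the authors. A deposited quality table gives alignment shares in percent by library, as the authors listed them. CASAVA, BWA and the build GRCz11 are named per the submitters' processing notes; for the counting program, the strand setting and the release of the annotation the entry is not given in the sources used here. Reads of overlapping or antisense genes may therefore be mixed. The count table itself named 17766 genes, a list pairing IDs with symbols named 5860 more, and 1806 kept their ID alone. Every column of the count table belonged to a library of the study (0 did not).

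The comparison was fitted with edgeR 4.0.16 in R 4.3.3: genes passing filterByExpr in the 9 libraries (21152), TMM normalization over the 15 libraries of series 35, and the quasi-likelihood test with Benjamini-Hochberg adjustment over all genes tested at 0.05. Airport was set against harbour and road as 1 group, and against each site in a fit with a coefficient per site. CPM are on the TMM scale, log2 CPM used a prior count of 2, and an SE is the log2 fold change divided by the square root of its F value. Library totals of 18744571 counts and more set the counting precision, and p-values cover only the spread between libraries. The code was tested on simulated data. Alternatives were DESeq2 1.42.0, another normalization, no filter on low counts, other sets of libraries, a thinned filter 54 library and leaving out each library.

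Genes named were the 12 largest rises and 12 largest falls among those that passed without overlap of the groups, the 4 genes of lowest p in each list, every AhR gene and the 8 genes of widest spread among airport filters. Other genes named were list members chosen after their values were seen, and kinases were taken out of the ribosomal protein list at that stage. The members of the comparison and the gene lists were chosen with earlier results of these data known. Some genes that this rule names are not reported here.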

Additional observations from a re-analysis of the deposited data

Results flagged for a closer look

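Among the 192 genes chosen by rule, 13 of those reported had 1 of the 6 harbour and road libraries far from the nearest of the other 5, by Dixon's criterion on log2 CPM. Chance alone puts about 1 in 20 groups past it. In 12 of the 13 the library was that of harbour filter 32, and no explanation was tested. Harbour filter 32 was the highest of the 6 for the acute-phase gene agt (55.4 CPM), mmp13a (11.6 CPM), junba (21.3 CPM), psmd11a of the proteasome (40.9 CPM), the neutrophil gene npsn (33.4 CPM), batf2 (2.09 CPM) and plac8.2 (2.49 CPM), in each case on the side of the airport mean. It was the lowest of the 6 for the collagens col7a1 (18.7 CPM), col5a3b (69 CPM), col1a1a (2337 CPM) and col14a1b (28.68 CPM), and for cyp4v2a (36.06 CPM), again on that side. Road filter 30 was the lowest of the 6 for nppa (5.07 CPM), a heart hormone gene.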

How the results depend on the processing

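Counts of genes changed in airport against harbour and road ran from 1467 (without airport filter 44) to 4186 (without harbour filter 32), against 3659 in all 9 libraries, and gave 1748 when harbour filter 36 and road filter 26 were both left out, a choice made after seeing the data. The other alternatives gave 3506 to 5058 genes: DESeq2 4502, another normalization 3620, no filter on low counts 3506, a coefficient per site 4155, all 15 libraries of the series 4500, all 33 libraries 5058, and the filter 54 library thinned to a total of 20753802 counts 3548. The fit of all 33 libraries had a term for library series. It counted repeat pools of the same harbour and road filters as separate libraries, so its spread was partly that between pools of 1 filter. Leaving out a library gave 968 to 4338 genes against harbour alone, 795 to 3109 against road alone and 0 to 191 for harbour against road, where DESeq2 gave 326 and no filter on low counts 19. Of 173 named genes that passed, 113 passed with each library left out in turn. Without airport filter 44, 53 named genes no longer passed and 1 reversed: hp ran from -0.276 to 4.51 with 1 library left out. Without airport filters 48 and 54, 16 and 20 did not pass. Under DESeq2 1 did not pass, and 9 of the 192 named genes were given no adjusted p. These 9, which passed in edgeR, were il1b, itln3, cxcl8a, cxcl18b, batf2, hp, scpp8, tnfaip2b and ENSDARG00000114451. DESeq2 therefore gave no call for them. Inflammation genes that rose were 9 under DESeq2 against 14 in edgeR. With harbour filter 36 and road filter 26 left out 38 did not pass, and with all 33 libraries 17 did not, among them bag3, marco, nppa, timp2b, batf2, cxcl18b and hsp70.3. The cause was not tested, beyond the fits that left out libraries having fewer of them. Low counts limit genes such as ahrra, cyp11c1 and plac8.2. No paired analysis was possible because each pool came from a different filter and the labels of the airport pools give no replicate number.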
